A study of Mus musculus with 48 samples.

Results

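The genes described here encode the translation initiation factors of mouse liver, taken as every gene whose symbol begins with Eif followed by a digit from 1 to 6. The rule found 55 genes among the 24453 of the exon table and the same 55 among the 20771 of the intron table. The liver RNA came from Nono-/- mice and from wild-type mice, both C57BL/6, 14 weeks old, kept with lights on for 12 h a day and given food only during the dark for 1 week. Livers were taken every 2 h, at 12 times named by ZT, the count of hours since the lights came on. At each time and genotype 1 pool of 2 mice gave 1 library of total RNA and 1 of nuclear RNA, so that Nono-/- total RNA, wild-type total RNA, Nono-/- nuclear RNA and wild-type nuclear RNA had 12 libraries each. There is no replicate within a time, so every error below is the spread over times or around a smooth daily curve, and rhythm cannot be told apart from the spread between pools beyond that curve.

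Initiation begins when eIF2, loaded with GTP and the initiator tRNA, joins the small ribosomal subunit together with eIF1, eIF1A, eIF3 and eIF5. The cap-binding complex eIF4F, made of eIF4E, the scaffold eIF4G and the helicase eIF4A, brings this subunit to the 5′ end of the messenger RNA, and eIF5B joins the large subunit at the start codon. The pathway has well known brakes: kinases that phosphorylate eIF2 under stress, and the eIF4E-binding proteins, which hold eIF4E away from eIF4G until the nutrient-sensing kinase mTOR phosphorylates them.

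Between their start and end, 7 of the 55 members contain 14 small nucleolar RNA (snoRNA) genes in the GENCODE M21 annotation of GRCm38, on the same strand. Whether each lies within an intron was not checked. SnoRNAs guide modification of ribosomal and other RNA and are mostly cut out of host introns. The following examples lie in Eif4a2 (Snord2, chr16:23108953-23109021, plus strand), Eif5 (Snora28, chr12:111540941-111541067, plus strand) and Eif4a1 (Gm24029, chr11:69667834-69667976, minus strand). Capitals mark the terminal CTGA, called the D box, or the terminal ACA of the other snoRNA class.
Snord2: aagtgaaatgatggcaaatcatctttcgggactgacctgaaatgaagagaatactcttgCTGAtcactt
Snora28: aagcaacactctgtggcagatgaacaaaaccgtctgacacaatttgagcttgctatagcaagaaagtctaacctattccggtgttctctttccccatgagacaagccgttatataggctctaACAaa
Gm24029: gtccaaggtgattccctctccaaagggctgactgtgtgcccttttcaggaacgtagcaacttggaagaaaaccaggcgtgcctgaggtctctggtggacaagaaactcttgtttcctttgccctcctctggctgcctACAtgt

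RefSeq promoters of GRCm38.p6, each 300 bases long from 250 before to 50 after the gene's start, were matched to 43 of the 55 members by symbol. That of Eif2ak1 lies 54070 bases from the start given in the files, and the others within 47 bases of it. The E-box letters CACGTG, which read the same on both strands, were present in 10 of the 43 (23.3%) and in 2349 of all 32851 promoters (7.15%). These shares are of unlike sets, the promoter nearest the start of each member on one side and every promoter listed on the other. The share among genes tested in liver was not counted. Transcription factors of the clock and of growth control are known to bind CACGTG, but a match is only a description of the sequence. The 250 bases before the start are shown for 3 holders whose messenger RNA was rhythmic in wild-type total RNA, with CACGTG in capitals. They are Eif4g1 (chr16:20672477-20672726, plus strand), Eif3f (chr7:108934165-108934414, plus strand) and Eif5a (chr11:69921276-69921525, minus strand).
Eif4g1: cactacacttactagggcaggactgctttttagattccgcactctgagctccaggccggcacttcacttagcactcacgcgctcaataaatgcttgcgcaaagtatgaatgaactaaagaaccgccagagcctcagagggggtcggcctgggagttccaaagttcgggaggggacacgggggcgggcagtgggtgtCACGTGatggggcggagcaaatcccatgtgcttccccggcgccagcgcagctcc
Eif3f: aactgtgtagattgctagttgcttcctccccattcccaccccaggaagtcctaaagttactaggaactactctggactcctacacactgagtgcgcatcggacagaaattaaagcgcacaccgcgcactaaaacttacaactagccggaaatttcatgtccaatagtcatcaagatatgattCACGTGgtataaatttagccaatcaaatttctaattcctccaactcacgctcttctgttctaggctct
Eif5a: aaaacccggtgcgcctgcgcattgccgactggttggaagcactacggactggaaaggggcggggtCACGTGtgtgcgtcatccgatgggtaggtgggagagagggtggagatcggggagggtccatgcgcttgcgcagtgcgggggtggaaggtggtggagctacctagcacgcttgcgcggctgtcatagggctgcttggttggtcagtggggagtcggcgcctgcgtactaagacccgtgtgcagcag

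The values are FPKM, reads scaled by exon or intron length and by sequencing depth, as the authors computed them. Library depth was between 9.91 and 28.9 M reads. Nono exons lay between 0 and 0.091 FPKM in Nono-/- total RNA and between 8.74 and 10.7 FPKM in wild-type total RNA. Introns took 18.5% ± 2.41 of the reads of Nono-/- total RNA and 22.1% ± 1.72 of wild-type total RNA (SD, n = 12 each). In nuclear RNA the 10 genes with most exon reads took 19.1% ± 1.81 of exon reads in Nono-/- and 15.6% ± 0.965 in wild-type (SD, n = 12 each). Hepatocyte markers summed to 32097 to 47767 FPKM in Nono-/- total RNA and 27371 to 45223 FPKM in wild-type total RNA, and Kupffer cell markers to 59.6 to 157 and 45.7 to 129 FPKM, with none of their 5 genes at 0 throughout. Of the 5 Kupffer cell markers, 4 were higher in Nono-/- total RNA, and 0 of 5 hepatocyte markers changed. In nuclear RNA exons 3 of 4 tested Kupffer cell markers were higher (median 0.49) and 1 of 5 hepatocyte markers was lower (median -0.22). The part of these shifts in the results below was not tested. In bulk tissue, fewer cells of a type and less RNA per cell cannot be told apart.

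A few libraries stood apart, for all genes as well as for the members. In total RNA exons the Nono-/- ZT10 library held the lowest Nono-/- value for 18 of 53 members, against 14.5% of all tested genes, and the wild-type ZT8 library the lowest wild-type value for 19 of 53, against 25.6% of all tested genes. These 2 libraries had the highest intron shares of their groups, 23.9% in Nono-/- ZT10 and 24.6% in wild-type ZT8. They were also highest for 5 of 53 members (Nono-/- ZT10, against 15.6% of all tested genes) and 11 of 53 (wild-type ZT8, against 24.55%). The ZT14 libraries were highest for 13 of 53 members in Nono-/- (against 12.55%) and 12 of 53 in wild-type (against 7.93%). In nuclear RNA exons the Nono-/- ZT2 library was lowest for 18 of 52 members, against 25.2% of all tested genes, and the wild-type ZT22 library for 13 of 52, against 12.2%. The same libraries were highest for 7 of 52 (Nono-/- ZT2, against 24.4%) and 6 of 52 (wild-type ZT22, against 13.2%). Each result was also computed without each time in turn. Some counts without these times stand beside the results, and the ranges over all times left out are given at the end.

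**Figure D1:**
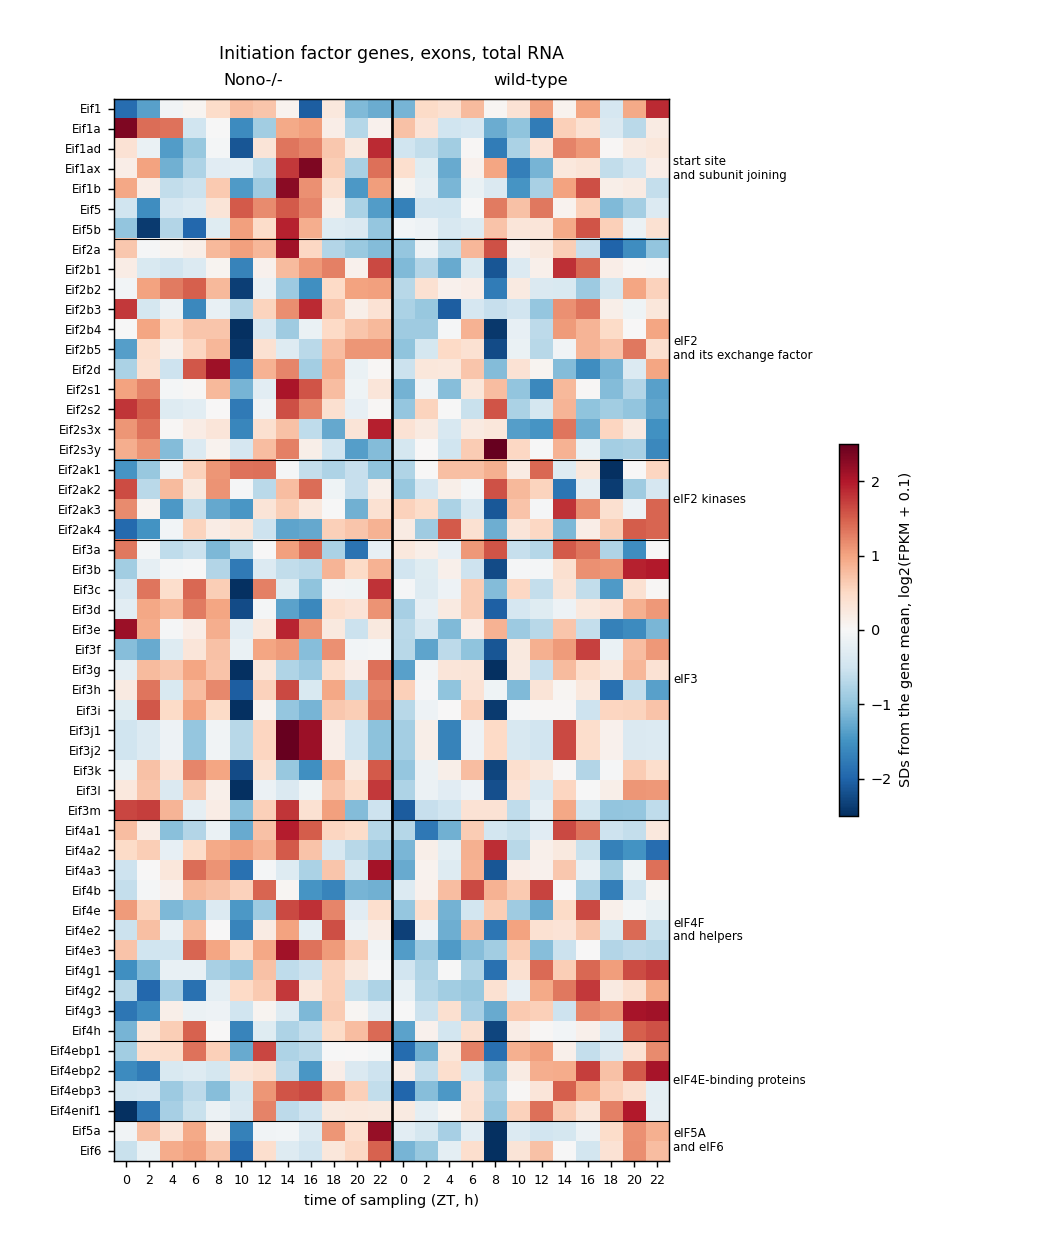
Exon signal of the 53 tested members in total RNA, as SDs from each gene's mean of log2(FPKM + 0.1) over the 24 libraries, with Nono-/- libraries on the left and wild-type libraries on the right, each by ZT, and genes grouped by role. Eif3b, Eif3d, Eif3g, Eif3i, Eif3k and Eif3l are among the rows with dark blue cells both at Nono-/- ZT10 and at wild-type ZT8.

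Levels differed widely between the members. In total RNA, 11 members averaged 30 FPKM or more in wild-type, 21 lay between 10 and 30, 21 between 1 and 10, and 2 below 1. The upper end was held by Eif4g2, an eIF4G relative without the eIF4E-binding part, at 58.1 ± 9.87 FPKM in Nono-/- and 62.7 ± 8.64 FPKM in wild-type, and by the helicase Eif4a2 at 70.8 ± 11.8 and 60.8 ± 16.1 FPKM (SD, n = 12 each). Eif5a, whose hypusine-bearing protein also acts in elongation, had 65.5 ± 12.1 FPKM in Nono-/- and 58.3 ± 10.5 FPKM in wild-type. Neighbours among these 3 did not differ beyond their spread. The cap-binding Eif4e was far lower, at 4.55 ± 0.79 FPKM in Nono-/- and 4.34 ± 0.587 FPKM in wild-type. Its relative Eif4e1b was listed at 0 in every total RNA library, and Eif5a2, a close relative of Eif5a, averaged 0.237 FPKM in Nono-/- and 0.198 FPKM in wild-type. Both stayed below the filter of a mean of 0.5 FPKM, which left 53 members for testing in total RNA exons, 52 in nuclear RNA exons, 51 in total RNA introns and 53 in nuclear RNA introns, where the filter for introns was 0.1 FPKM.

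A few rows cannot be read as single genes. Eif3j1 and Eif3j2 occupy the same interval, chr2:122028580-122053632, in the files (mm10), and their exon values differed by at most 0.01 FPKM in total RNA, whereas RefSeq places Eif3j2 on chromosome 18. They stand for the same reads, so they count as 2 of the 55 rows but 1 measurement. The eIF2 gamma genes Eif2s3x and Eif2s3y are close copies that short reads may not separate. Eif2s3x averaged 1.24 FPKM in Nono-/- and 1.13 FPKM in wild-type, and Eif2s3y 30.1 and 30.6 FPKM. Another gene of the tables overlaps 13 members, on the other strand for 9 of them, among them Serp1 over Eif2a, Aimp2 over Eif2ak1, Ccdc73 over Eif3m and Rfc4 over Eif4a2. No strand setting is recorded for the counting, so reads of such pairs cannot be told apart.

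The first comparison set Nono-/- against wild-type over the whole day in exons of total RNA, which stand mostly for mature messenger RNA. In it 1 member was higher in Nono-/- (Eif4e3) and 5 were lower (Eif4ebp2, Eif4g3, Eif1, Eif4g1 and Eif4enif1). By role these were 3 of 11 tested members of eIF4F and its helpers, 2 of 4 eIF4E-binding proteins and 1 of 7 start-site members, while Eif4e itself did not pass (0.04, limma adjusted p = 0.819). Together these 6 of 53 members (11.3%) stand beside 10.9% of all 11352 genes tested, so the share is near the background (4.45% higher and 6.48% lower). The median difference of the members was 0.04 on the log2 scale, against 0.00 for all genes. All differences are given as Nono-/- minus wild-type on the scale log2(FPKM + 0.1) after scaling each library to the median gene, with limma's standard error (SE) and adjusted p.

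Eif4e3 encodes a cap-binding protein of the eIF4E family and lies on the minus strand at chr6:99625137-99666771 (mm10). Its exons ran from 1.45 over a median of 2.504 to 4.13 FPKM in Nono-/- and from 0.984 over 1.27 to 2.29 FPKM in wild-type. The ranges overlapped, but after scaling the Nono-/- library was higher at 12 of 12 times. The difference was 0.80 ± 0.12 (limma adjusted p = 0.000623), or 1.74-fold. Without each time in turn the adjusted p stayed at or under 0.00354. In nuclear RNA exons it was higher by 0.69 ± 0.13 (0.74 ± 0.329 FPKM in Nono-/- and 0.46 ± 0.143 FPKM in wild-type, limma adjusted p = 0.00195). Its wild-type mean there lay below the filter of 0.5 FPKM, so it passed the filter through its Nono-/- values. In nuclear introns it was higher by 0.55 ± 0.08 (0.288 ± 0.106 and 0.174 ± 0.0407 FPKM, limma adjusted p = 0.00075), higher in Nono-/- at 11 of 12 times in both. Its introns in total RNA were too low to test.

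Eif4ebp2, one of the 3 eIF4E-binding proteins, lies on the minus strand at chr10:61432497-61452669 (mm10). Its exons ran from 5.67 over a median of 9.54 to 13.0 FPKM in Nono-/- total RNA and from 7.44 over 14.0 to 24.8 FPKM in wild-type total RNA. The ranges overlapped in the light phase, whereas from ZT12 to ZT22 all 6 Nono-/- libraries lay at or below 13.0 FPKM and all 6 wild-type libraries at or above 14.8 FPKM. How many of all genes separate in this way was not counted. The difference in rhythm did not pass for Eif4ebp2 (limma adjusted p = 0.462), so no effect of the dark phase alone is shown. Over the whole day Eif4ebp2 was lower by -0.63 ± 0.12 (limma adjusted p = 0.00389, lower at 9 of 12 times), which is 1.54-fold. Eif4ebp2 was also lower in nuclear exons by -0.53 ± 0.11 (limma adjusted p = 0.00244), in total RNA introns by -0.34 ± 0.07 (limma adjusted p = 0.00514) and in nuclear introns by -0.24 ± 0.07 (limma adjusted p = 0.0277). It was the only member past the threshold in all 4 kinds of signal, and Eif4e3 passed in the 3 in which it was tested. Another 8 passed in 2, 20 in 1 and 25 in none, among them Eif4e1b and Eif5a2, which were not tested in any. The shares of all genes in these classes were not counted, so the counts are only a description.

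The remaining decreases in total RNA were small. Eif4g1, the main eIF4F scaffold, ran from 40.0 over 49.4 to 60.1 FPKM in Nono-/- and from 37.8 over 57.8 to 72.0 FPKM in wild-type (-0.21 ± 0.06, limma adjusted p = 0.0234). Its paralog Eif4g3 ran from 2.64 over 3.91 to 4.82 FPKM in Nono-/- and from 3.02 over 4.64 to 6.87 FPKM in wild-type (-0.30 ± 0.09, limma adjusted p = 0.029). In both genes the ranges overlapped, and the 2 highest values were those of wild-type ZT20 and ZT22. Eif1, which keeps the scanning ribosome from starting at poor codons, ran from 7.58 over 11.7 to 13.7 FPKM in Nono-/- and from 9.15 over 12.8 to 17.3 FPKM in wild-type (-0.29 ± 0.08, limma adjusted p = 0.0256). Eif4enif1, which carries eIF4E into the nucleus, ran from 3.29 over 4.26 to 5.22 FPKM in Nono-/- and from 3.997 over 4.69 to 5.71 FPKM in wild-type (-0.17 ± 0.05, limma adjusted p = 0.0407). Each of these 4 was lower at 9 or 10 of 12 times. Each lost its call without at least 3 single times, with adjusted p up to 0.0714 for Eif1, 0.0612 for Eif4g1, 0.0796 for Eif4g3 and 0.107 for Eif4enif1. The count of lower members, 5 in all, was 1 to 4 without single times, and it moved by more than 1.5 times without ZT2, ZT6, ZT12, ZT14, ZT16 or ZT22.

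No member of the eIF2 complex and its exchange factor (11 tested), the eIF2 kinases (4) or eIF3 (14) passed in total RNA exons. The differences of the members that did not pass lay between -0.20 for Eif2ak3, the kinase also called PERK, and 0.30 for the eIF3 subunit Eif3e (adjusted p = 0.0601). With each time point as a block, 4 members were higher and 3 lower, and Eif1 (adjusted p = 0.0689) and Eif4enif1 (adjusted p = 0.0555) no longer passed. After adding each intron share to the model, 0 members passed (limma, Eif4e3 adjusted p = 0.111 and Eif4ebp2 adjusted p = 0.176, both with the same sign).

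**Figure D2:**
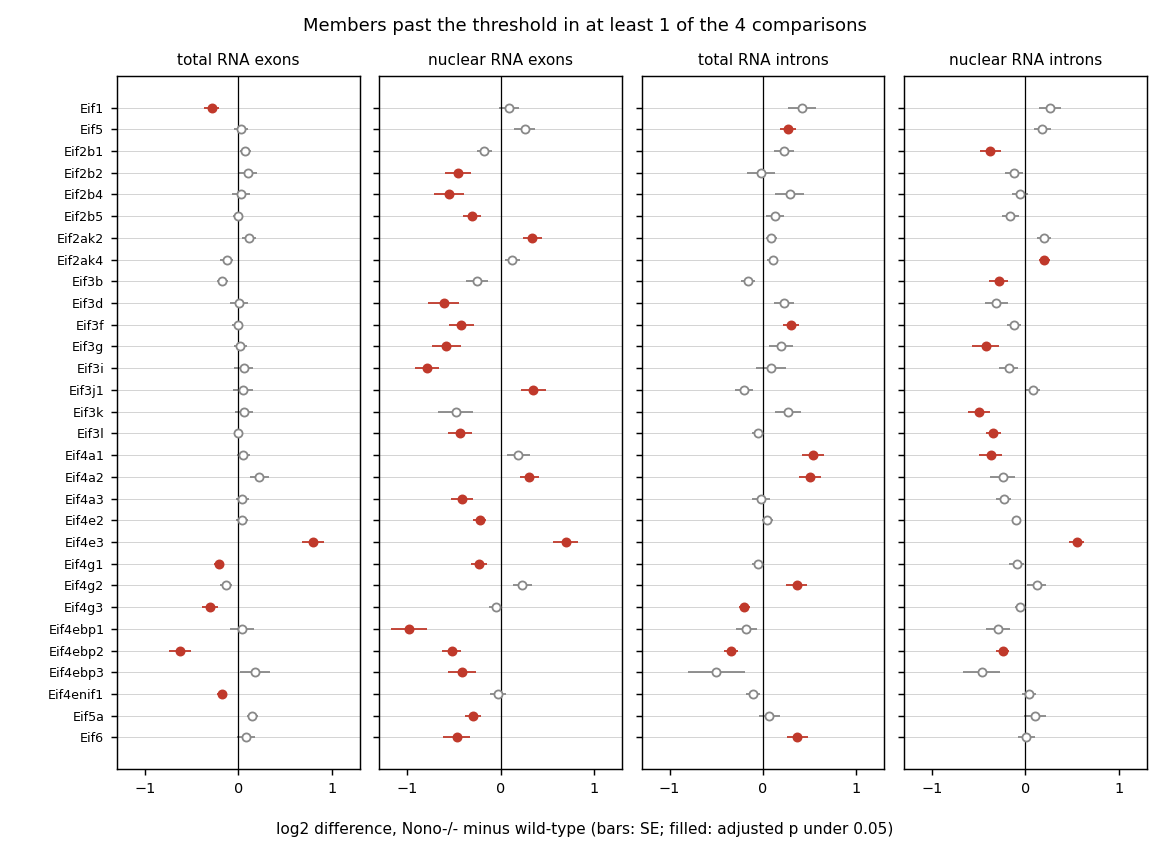
Difference between Nono-/- and wild-type (log2, Nono-/- minus wild-type, points, with SE as bars) for the 30 members past the threshold in at least 1 of 4 comparisons. Filled points have a limma adjusted p under 0.05; Eif4e3 lies right of 0 in 3 panels, and Eif4ebp2 lies left of 0 in all 4.

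In exons of nuclear RNA, which mix unspliced and spliced transcripts inside the nucleus, more members differed and most were lower in Nono-/-. There 4 members were higher (Eif4e3, Eif3j1, Eif2ak2 and Eif4a2) and 16 lower, or 20 of 52 (38.5%), against 34.3% of all 10500 genes tested (15.7% higher and 18.6% lower). The lower ones were 3 of the 4 eIF4E-binding proteins and partners, 5 of 14 eIF3 rows (Eif3d, Eif3f, Eif3g, Eif3i and Eif3l), 3 subunits of the eIF2 exchange factor (Eif2b2, Eif2b4 and Eif2b5), both tested members of the eIF5A and eIF6 group, and Eif4a3, Eif4e2 and Eif4g1. The median of the members was -0.08, against 0.00 for all genes.

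The largest of these was Eif4ebp1, a target of mTOR, with 0.071 to 0.732 FPKM (median 0.312) in Nono-/- nuclei and 0.378 to 1.80 FPKM (median 0.763) in wild-type nuclei. It was lower at 12 of 12 times by -0.98 ± 0.19 (limma adjusted p = 0.00226), or 1.97-fold, although its exons in total RNA averaged 9.85 ± 2.42 FPKM in Nono-/- and 9.61 ± 2.70 FPKM in wild-type (limma adjusted p = 0.897). Its Nono-/- median in nuclei lay below the filter of 0.5 FPKM, so it passed the filter through its wild-type values. Its lowest Nono-/- value lay under the pseudocount of 0.1. In nuclei Eif2b2 also averaged below the filter in Nono-/- and passed it through wild-type. Eif3i, a WD-repeat subunit of eIF3, ran from 0.347 over 1.08 to 2.01 FPKM in Nono-/- nuclei and from 0.716 over 2.25 to 4.54 FPKM in wild-type nuclei (-0.79 ± 0.13, limma adjusted p = 0.00111). Both ranges overlapped, with Nono-/- ZT2 lowest in each. Eif3d, which can itself bind the cap, averaged 2.12 ± 1.01 FPKM in Nono-/- and 3.59 ± 1.54 FPKM in wild-type (-0.61 ± 0.16, limma adjusted p = 0.00876). Eif2b4, a regulatory subunit of the eIF2 exchange factor, averaged 1.296 ± 0.548 and 2.16 ± 0.687 FPKM and was lower at 12 of 12 times (-0.55 ± 0.16, limma adjusted p = 0.0127).

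Among the higher members, Eif2ak2, the double-stranded RNA kinase PKR, averaged 2.28 ± 0.452 FPKM in Nono-/- nuclei and 2.05 ± 0.256 FPKM in wild-type nuclei (0.34 ± 0.10, limma adjusted p = 0.0187). Eif4a2 averaged 26.9 ± 4.16 and 25.4 ± 4.90 FPKM (0.31 ± 0.10, limma adjusted p = 0.0256). Eif3j1 barely passed (0.35 ± 0.14, limma adjusted p = 0.0486), and Eif3j2, which stands for the same reads, did not (limma adjusted p = 0.0586). The FPKM means show smaller gaps than the fitted differences because, as deposited, the median gene in nuclear exons lay at -0.20. Without scaling 1 member was higher and 27 were lower. With the share of the 10 most abundant genes as a covariate 0 members passed (limma), and Eif2ak2, Eif3j1, Eif4a2, Eif2b5, Eif3f, Eif4g1 and Eif6 took the opposite sign. With times as blocks 7 members were higher. Without ZT2, 3 members were higher and 15 lower, and without ZT10 1 was higher.

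Introns of total RNA gave 6 members higher in Nono-/- (Eif4a1, Eif4a2, Eif4g2, Eif5, Eif6 and Eif3f) and 2 lower (Eif4ebp2 and Eif4g3). These 8 of 51 (15.7%) stand beside 16% of all 9422 genes tested (6.62% higher and 9.34% lower). The helicase Eif4a1 ran from 6.15 over 7.66 to 10.5 FPKM in Nono-/- and from 5.46 over 6.42 to 7.82 FPKM in wild-type (0.54 ± 0.12, limma adjusted p = 0.00705, higher at 11 of 12 times). Eif4a2 ran from 15.5 over 16.7 to 22.4 FPKM in Nono-/- and from 11.9 over 14.9 to 18.4 FPKM in wild-type (0.50 ± 0.12, limma adjusted p = 0.0087, higher at 12 of 12 times). The ranges overlapped in both genes. Eif4g2 averaged 13.2 ± 1.44 and 12.2 ± 1.01 FPKM (0.36 ± 0.11, limma adjusted p = 0.0352), and Eif5, the GTPase activator of eIF2, 4.35 ± 0.456 and 4.32 ± 0.685 FPKM (0.27 ± 0.09, limma adjusted p = 0.0392), each time for Nono-/- and then wild-type.

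These 4 are the members with the highest intron signal, and each contains a snoRNA gene. Of the 7 members with a snoRNA gene, 4 were higher and 0 lower in total RNA introns (median difference 0.27), and of the 44 others tested, 2 were higher and 2 lower (median 0.02). Of all genes tested there, 6.62% were higher and 9.34% lower. In nuclear introns 0 of the 7 were higher and 1 lower (median -0.09), and of the 46 others tested 2 were higher and 6 lower (median -0.02). Of all genes tested in nuclear introns, 7.91% were higher and 10.2% lower. The shares among all genes that contain a snoRNA gene were not counted, so these counts are only a description. In total RNA the wild-type intron means were 0.241 to 14.8 FPKM with a snoRNA gene and 0.115 to 1.74 FPKM without. The other 3 holders, Eif3a, Eif4g1 and Eif2ak3, did not pass. Rows of the exon table for the snoRNAs themselves gave 22.1 ± 7.02 FPKM for Snora81 in Nono-/- total RNA and 15.2 ± 3.26 FPKM in wild-type total RNA, and 4.77 ± 1.64 and 3.52 ± 1.42 FPKM for Snora28. Snord2 had 5.44 ± 2.21 FPKM in Nono-/- and 6.77 ± 2.68 FPKM in wild-type, and Snord66 1.14 ± 1.15 and 1.20 ± 0.844 FPKM (SD, n = 12 each). Snora19 was listed at 0 in every library. In nuclear RNA the means for Nono-/- and wild-type were 64.3 ± 14.4 and 62.7 ± 12.9 FPKM for Snora81 and 33.1 ± 10.3 and 37.3 ± 5.92 FPKM for Snora28. They were 21.2 ± 5.61 and 17.9 ± 6.51 FPKM for Snord2 and 5.78 ± 3.93 and 8.17 ± 2.51 FPKM for Snord66 (SD, n = 12 each). How much of the intron signal comes from the snoRNA letters was not tested. As deposited, the median gene in total RNA introns lay at -0.21, and without scaling 2 members were higher (Eif4a1, adjusted p = 0.0106, and Eif4a2, adjusted p = 0.0179) and 18 lower. With the intron share as a covariate 0 members passed (limma). Without ZT2 2 were higher, and without ZT10 9 were higher and 6 lower.

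**Figure D3:**
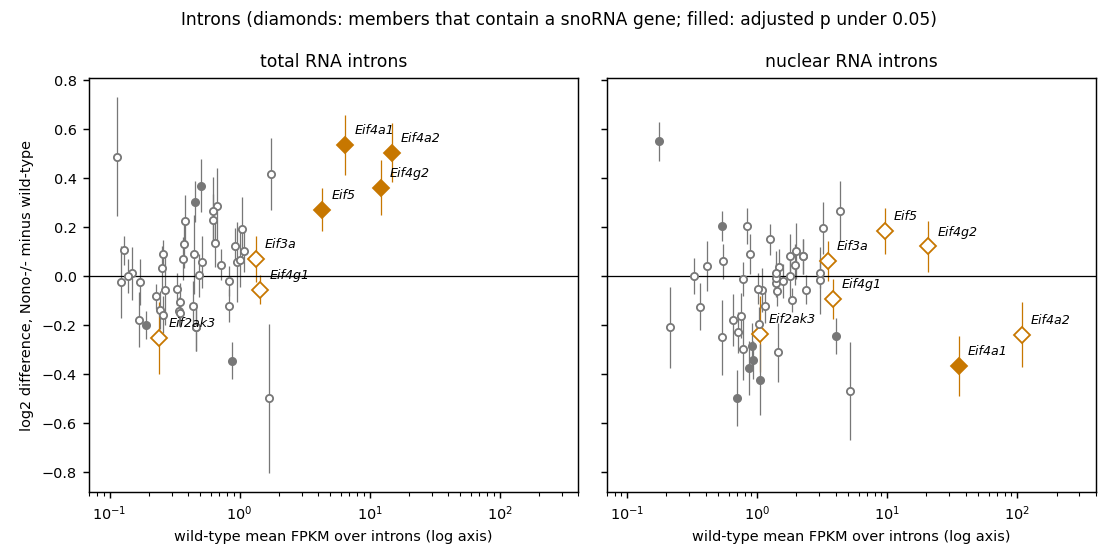
Difference in intron signal (log2, Nono-/- minus wild-type, with SE as bars) against the wild-type mean intron FPKM (log axis) of each tested member, in total RNA on the left and nuclear RNA on the right. Diamonds are the 7 members that contain a snoRNA gene and filled marks have a limma adjusted p under 0.05; in total RNA Eif4a1, Eif4a2, Eif4g2 and Eif5 lie at the upper right, and in nuclear RNA Eif4a1 lies below 0.

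In introns of nuclear RNA, which include unspliced transcripts, 2 members were higher in Nono-/- (Eif4e3 and Eif2ak4) and 7 lower (Eif2b1, Eif3b, Eif3g, Eif3k, Eif3l, Eif4a1 and Eif4ebp2). These 9 of 53 (17%) stand beside 18.1% of all 12055 genes tested (7.91% higher and 10.2% lower). Eif2ak4, the amino acid sensing kinase GCN2, averaged 0.62 ± 0.0948 FPKM in Nono-/- and 0.532 ± 0.0501 FPKM in wild-type (0.21 ± 0.06, limma adjusted p = 0.0246). Eif3k averaged 0.488 ± 0.141 and 0.696 ± 0.134 FPKM (-0.50 ± 0.12, limma adjusted p = 0.0076), and Eif3l 0.724 ± 0.166 and 0.92 ± 0.097 FPKM (-0.34 ± 0.08, limma adjusted p = 0.00692).

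Eif4a1 went the other way than in total RNA introns, with 13.5 to 37.6 FPKM (median 28.3) in Nono-/- nuclei and 25.9 to 44.1 FPKM (median 35.2) in wild-type nuclei. Its difference of -0.37 ± 0.12 had a limma adjusted p of 0.0429, which reached 0.12 when single times were left out, and its sign turned with the share of the 10 most abundant genes as a covariate (0.08). With that covariate 0 members passed (limma). Without ZT2, at which the Nono-/- library was lowest for 17 of 53 members, against 21.6% of all tested genes, 2 members were lower.

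The next comparison set the exons of nuclear RNA against those of total RNA from the same livers. In wild-type mice, with the median of all genes set to 0, 37 of 52 members lay below it and 6 above (limma, 82.7% either way, against 87.7% of the 9871 genes tested, of which 44.1% lay below and 43.6% above). The median of the members was -0.83 on the log2 scale. eIF3 rows had a median of -1.45 (n = 14), the eIF2 and exchange factor group -0.86 (n = 10), the eIF4F group -0.27 (n = 11), and the eIF2 kinases -0.05 (n = 4).

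The lowest wild-type ratios were those of Eif3i (-2.94 ± 0.355), Eif5a (-2.69 ± 0.292) and Eif1ax (-2.47 ± 0.292, SD, n = 12 each), a copy of the scanning factor eIF1A. Eif3i was thus 7.70-fold below the median gene, at percentile 1.87 of all genes. At the other end stood Eif2ak4 (1.19 ± 0.243), Eif4enif1 (1.11 ± 0.276), Eif4g3 (0.82 ± 0.448) and Eif5b (0.62 ± 0.169), above the median gene. The sign of the lesser excess of Eif2s3y, Eif4e and Eif5b turned when no filter was applied.

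In Nono-/- mice this ratio was higher for 3 members (Eif1, Eif2ak4 and Eif4g2) and lower for 15, or 18 of 52 (34.6%), against 19.6% of all genes tested. By direction these are 5.77% higher and 28.8% lower, beside 10.4% and 9.19% of all genes. Eif4ebp1 had a ratio of -3.20 ± 0.497 in Nono-/- and -2.19 ± 0.296 in wild-type (SD, n = 12 each), a difference of -1.01 ± 0.16 (limma adjusted p = 0.00167, lower at 12 of 12 times). Most of its Nono-/- nuclear exon values lay below the filter of 0.5 FPKM. Eif3i had -3.79 ± 0.696 in Nono-/- and -2.94 ± 0.355 in wild-type (-0.84 ± 0.16, limma adjusted p = 0.00584, lower at 12 of 12 times). Eif4ebp3 was lower by -0.59 ± 0.16 (limma adjusted p = 0.0171), also at 12 of 12 times.

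Of the 15, 6 were eIF3 subunits (Eif3d, Eif3f, Eif3g, Eif3h, Eif3i and Eif3l), 3 belonged to the eIF2 and exchange factor group and 2 were Eif5a and Eif6, the factor that keeps large ribosomal subunits from joining too early. The 15 include Eif4ebp1 and Eif2b2, which passed the filter of 0.5 FPKM in nuclear exons through their wild-type values. Eif1 was higher by 0.38 ± 0.11 (limma adjusted p = 0.0223), with 0.09 ± 0.286 in Nono-/- and -0.29 ± 0.256 in wild-type. The counts are sensitive to single times: without ZT8, 0 members were higher and 3 lower, and without ZT2, 2 were higher and 7 lower. Without scaling 0 were higher and 23 lower, with times as blocks 1 was higher and 9 lower, and with the share of the 10 most abundant genes as a covariate 0 passed (limma).

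**Figure D4:**
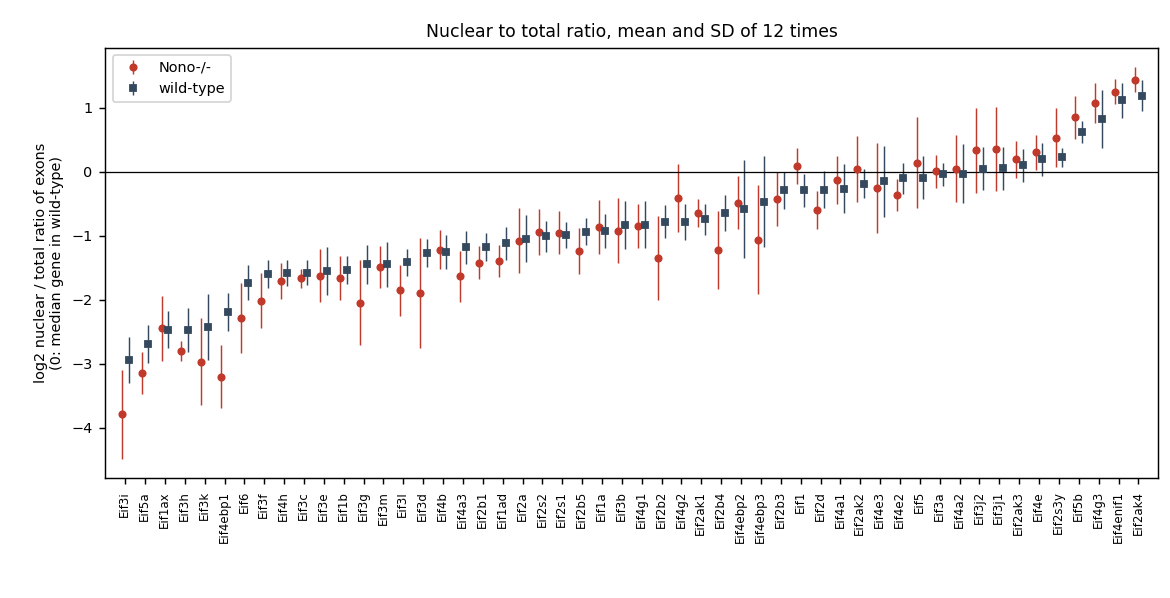
Nuclear to total ratio of exons (log2, 0 for the median gene in wild-type) for the 52 tested members, as the mean of 12 times with SD, for Nono-/- (circles) and wild-type (squares), in order of the wild-type mean. Members run from Eif3i at -3.79 in Nono-/- and -2.94 in wild-type to Eif2ak4 at 1.44 in Nono-/- and 1.19 in wild-type.

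The exon to intron ratio within a library sets the exon signal of a gene against its intron signal. In total RNA 5 members had a lower ratio in Nono-/- (Eif1, Eif2ak4, Eif3f, Eif4a1 and Eif4g2) and 0 a higher one (limma; 14 members had an unadjusted p under 0.05 in either direction), 9.80% of 51, against 6.92% of all 8892 genes tested (3.21% higher and 3.71% lower). Eif1 had a log2 ratio of 2.37 ± 0.49 in Nono-/- and 3.08 ± 0.577 in wild-type (-0.71 ± 0.17, limma adjusted p = 0.0181, lower at 11 of 12 times), and Eif4g2 1.99 ± 0.41 and 2.49 ± 0.204 (-0.50 ± 0.10, limma adjusted p = 0.00802). Without scaling, which placed the median gene at 0.21, 13 were higher and 1 lower. With the intron share as a covariate 0 members passed (limma).

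In nuclear RNA 3 members had a higher ratio (Eif4a1, Eif4a2 and Eif1a) and 7 a lower one (Eif4ebp1, Eif3i, Eif2b4, Eif6, Eif5a, Eif3f and Eif4ebp2), 19.2% of 52, against 20.1% of all 9823 genes tested (9.85% higher and 10.2% lower). Of the 7, Eif4ebp1 passed the filter of 0.5 FPKM in nuclear exons through its wild-type values. Eif4a1 and Eif4a2 had the lowest ratios among the members, -2.46 ± 0.227 and -1.66 ± 0.356 in Nono-/- and -3.02 ± 0.474 and -2.20 ± 0.3 in wild-type, so that their introns carried more signal per kilobase than their exons. They were higher in Nono-/- by 0.55 ± 0.15 (limma adjusted p = 0.0177) and 0.55 ± 0.12 (limma adjusted p = 0.00759). Unspliced transcripts hold exons as well as introns, and what the excess of intron signal in these genes stands for was not tested. Without scaling 22 were lower, with each time point as a block 5 were higher, and with the intron share or the share of the 10 most abundant genes as a covariate 0 passed (limma).

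The last comparisons concern the day. A 24 h curve was fitted in each genotype to the 12 total RNA libraries, and 21 of 53 members were rhythmic in Nono-/- (39.6%, against 29.6% of all genes tested) and 13 in wild-type (24.5%, against 31.6% of all genes tested). Both genotypes shared 8 of them (Eif2b1, Eif3b, Eif3f, Eif4b, Eif4ebp3, Eif4g2, Eif5 and Eif5a). Another 13 passed in Nono-/- but not in wild-type, and 5 in wild-type but not in Nono-/- (Eif2a, Eif4a2, Eif4ebp2, Eif4g1 and Eif4g3). The 13 include both Eif3j1 and Eif3j2, which stand for the same reads. The difference in rhythm passed for 0 members and for 0 of all genes (limma), with 4 members at an unadjusted p under 0.05 (Eif1, Eif3d, Eif4ebp2 and Eif4g3) and a lowest adjusted p of 0.462, so no member is shown to differ in rhythm between the genotypes.

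Eif4ebp3, another eIF4E-binding protein, had by far the strongest daily swing. Its exons ran from 9.72 FPKM at ZT8 to 45.4 FPKM at ZT16 in Nono-/- and from 5.70 FPKM at ZT0 to 41.9 FPKM at ZT14 in wild-type. The fitted peak was 4.297 times the trough in Nono-/- (log2 2.10 ± 0.33, peak at ZT15.85, limma adjusted p = 0.000342) and 3.76 times in wild-type (1.91 ± 0.33, peak at ZT14.6, limma adjusted p = 0.000682). Both calls held without any single time.

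Eif4ebp2 had a fitted swing of 1.54-fold in Nono-/- with a peak at ZT12.15 (limma adjusted p = 0.127), and swung 2.18-fold in wild-type with a peak at ZT18.05 (1.124 ± 0.24, limma adjusted p = 0.00498). The unadjusted p of the difference was 0.00506, adjusted p = 0.462. Eif4ebp1 did not pass in either genotype, with fitted swings of 1.24-fold in Nono-/- (adjusted p = 0.605) and 1.24-fold in wild-type (adjusted p = 0.592). The rhythms of these genes were not tested against each other.

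Of the 13 members rhythmic in wild-type, the 4 that peaked from ZT6 to ZT12 were Eif2a, Eif4a2, Eif4b and Eif5. Eif4a2 ran from 52.2 FPKM at ZT22 to 91.2 FPKM at ZT14 in Nono-/- and from 41.6 FPKM at ZT22 to 97.6 FPKM at ZT8 in wild-type, with a fitted swing of 1.45-fold in Nono-/- (limma adjusted p = 0.108) and of 1.80-fold with a peak at ZT8.14 in wild-type (limma adjusted p = 0.00974, 0.0697 without ZT8). Eif4b, a cofactor of the eIF4A helicase, swung 1.54-fold in both genotypes, with a peak at ZT8.64 in Nono-/- (limma adjusted p = 0.00192) and at ZT7.45 in wild-type (limma adjusted p = 0.00169). Eif5 swung 1.84-fold in Nono-/- with a peak at ZT12.7 (limma adjusted p = 0.000637) and 1.58-fold in wild-type with a peak at ZT10.5 (limma adjusted p = 0.00606). Its exons ran from 33.0 to 61.8 FPKM in Nono-/- and from 32.1 to 59.1 FPKM in wild-type.

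The fitted swing of Eif4g1 was 1.23-fold in Nono-/- (limma adjusted p = 0.123), and it swung 1.53-fold in wild-type with a peak at ZT17.4 (limma adjusted p = 0.00135). For Eif4g3 the fit was 1.25-fold in Nono-/- (limma adjusted p = 0.308), and it swung 1.65-fold in wild-type with a peak at ZT19.04 (limma adjusted p = 0.0108). Eif4g2 was rhythmic in both, 1.59-fold with a peak at ZT14.4 in Nono-/- (limma adjusted p = 0.00296) and 1.35-fold with a peak at ZT15.6 in wild-type (limma adjusted p = 0.0433). Eif3b, a core scaffold of eIF3, swung 1.31-fold in Nono-/- (limma adjusted p = 0.0434) and 1.67-fold in wild-type with a peak at ZT19.05 (limma adjusted p = 0.00037). It ran from 11.04 FPKM at ZT10 to 19.1 FPKM at ZT22 in Nono-/- and from 10.01 FPKM at ZT8 to 24.0 FPKM at ZT22 in wild-type. Eif4e3 was rhythmic in Nono-/-, 1.90-fold with a peak at ZT13.8 (limma adjusted p = 0.0184), with a fit of 1.43-fold in wild-type (adjusted p = 0.215).

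Of the 21 rhythmic members in Nono-/-, 3 peaked from ZT0 to ZT6, 3 from ZT6 to ZT12, 10 from ZT12 to ZT18 and 5 from ZT18 to ZT24. Eif3j1 and Eif3j2, which stand for the same reads, are both among the 10. Of the 13 in wild-type, the counts were 0, 4, 5 and 4. The swings called were 1.23 to 4.297-fold in Nono-/- and 1.35 to 3.76-fold in wild-type. The Nono-/- count was 11 without ZT10 and 12 without ZT2, and the wild-type count 10 without ZT8. Of the rhythmic members with a matched promoter, 2 of 15 in Nono-/- and 3 of 11 in wild-type held CACGTG, and of the other members with a promoter 8 of 28 and 7 of 32 did.

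**Figure D5:**
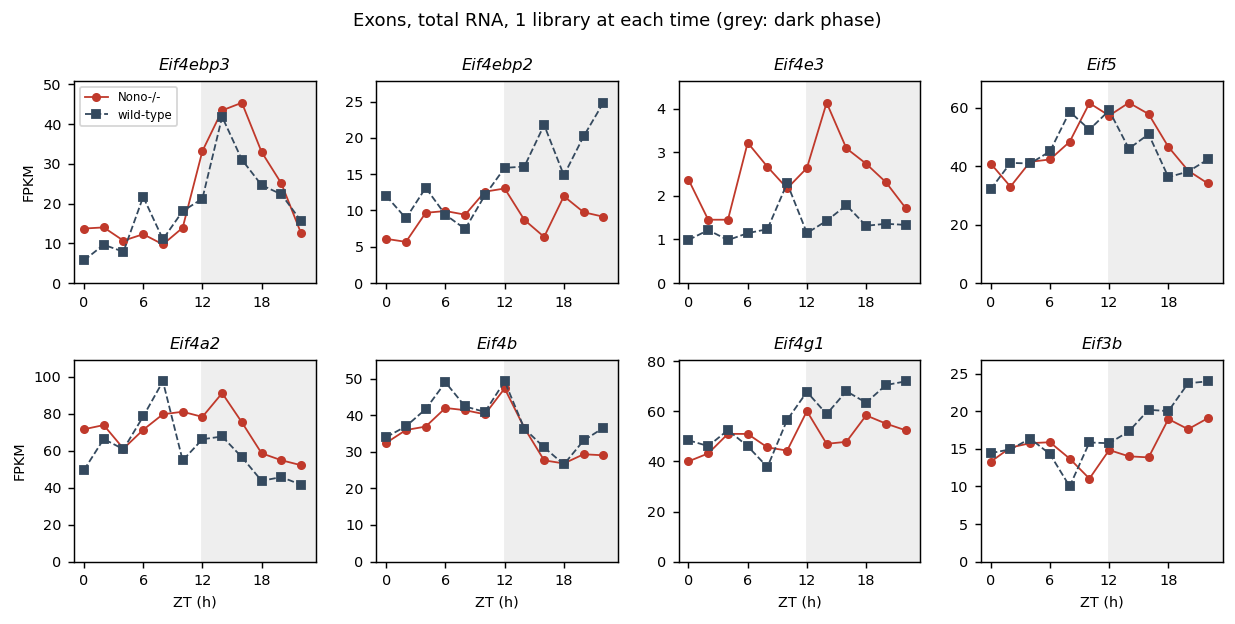
Exon FPKM in total RNA against ZT for 8 members, Nono-/- as circles with full lines and wild-type as squares with broken lines, 1 library for each point, grey for the dark phase. Eif4ebp3 reaches 45.4 FPKM in Nono-/- and 41.9 FPKM in wild-type early in the dark; Eif4ebp2 stays at or below 13.0 FPKM in Nono-/- while it reaches 24.8 FPKM in wild-type.

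In the other kinds of signal fewer members were rhythmic. In nuclear RNA exons 13 of 52 passed in Nono-/- (25%, against 30.8% of all genes) and 0 in wild-type (limma, 8 at an unadjusted p under 0.05, against 10.5% of all genes passing). Eif4e3 led, with a fitted swing of 2.79-fold and a peak at ZT8.31 in Nono-/- (limma adjusted p = 0.00242), and Eif4ebp2 had 2.04-fold with a peak at ZT9.31 (limma adjusted p = 0.00583). Eif4e3 passed the filter of 0.5 FPKM in nuclear exons through its Nono-/- values. The Nono-/- count was 6 without ZT2, and it was lower still without another single time.

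In nuclear introns 11 of 53 passed in Nono-/- (20.8%, against 31.7% of all genes) and 2 in wild-type, Eif4g1 and Eif4h, a helicase cofactor (3.77%, against 20.7% of all genes). Eif4g1 introns peaked at ZT8.50 in wild-type with a swing of 1.61-fold (limma adjusted p = 0.0153), and its exons in total RNA at ZT17.4. These peaks were not tested against each other. The highest wild-type intron value of Eif4g1, 5.378 FPKM, was that of ZT8. In nuclear introns that library was highest for 12 of 53 members, against 12.48% of all tested genes. Eif4e3 introns swung 2.18-fold in Nono-/- with a peak at ZT9.35 (limma adjusted p = 0.000239). In total RNA introns 1 of 51 passed in each genotype, Eif4e in Nono-/- (1.96%, against 14.5% of all genes) and Eif1 in wild-type (1.96%, against 11.4% of all genes). The difference in rhythm passed for 0 members in all 3 of these (limma), with 1, 0 and 4 members at an unadjusted p under 0.05 in nuclear exons, total RNA introns and nuclear introns.

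Partners of the initiation factors, taken from lists of known genes, gave the following counts in total RNA exons. Of 12 poly(A) and cap partners tested, 0 were higher and 2 lower, Pabpc1, the poly(A)-binding protein that contacts eIF4G (14.1 ± 4.16 FPKM in Nono-/- and 18.1 ± 4.56 FPKM in wild-type, -0.40 ± 0.08, limma adjusted p = 0.00546), and Larp1, a repressor of ribosomal protein messages (9.15 ± 2.22 and 13.0 ± 4.90 FPKM, -0.46 ± 0.10, limma adjusted p = 0.00674). Of 20 tested genes of the mTOR pathway 0 were higher and 2 lower, the mTOR inhibitor Deptor (-0.39 ± 0.08, limma adjusted p = 0.00546) and Tsc2 (-0.36 ± 0.10, limma adjusted p = 0.0293). Of 15 integrated stress response genes, which act downstream of eIF2 phosphorylation, 1 was higher, the asparagine synthetase gene Asns (1.117 ± 0.32, limma adjusted p = 0.0287), and 0 lower. None of the 10 tested elongation and termination factors passed, and of 63 ribosomal protein genes 1 was higher and 0 lower. These counts stand beside 4.45% of all genes higher and 6.48% lower. In nuclear RNA exons 4 of 12 poly(A) and cap partners were higher and 0 lower, and of 19 genes of the mTOR pathway 1 was higher and 9 lower. There 1 of 11 integrated stress response genes was higher and 3 lower, 0 of 10 elongation and termination factors were higher and 3 lower, and 8 of 66 ribosomal protein genes were higher and 15 lower. Of all genes 15.7% were higher and 18.6% lower in nuclear RNA exons.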

How the data were processed

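Exon and intron FPKM of 48 liver libraries were used as the authors deposited them. Per the file headers they were made with HOMER's analyzeRepeats.pl, 1 isoform kept for each gene, on mm10, with no strand option written. The submitters' processing notes name FastQC 0.11.2 and STAR 2.4.0k, and the labels' protocols give a stranded, ribosomal RNA-depleted total RNA kit. Groups came from the labels. The members and the companion lists were chosen with earlier results of these data known.

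Values were scaled to the median gene within each table and RNA fraction, and log2(FPKM + 0.1) for exons or log2(FPKM + 0.05) for introns was fitted with limma 3.58.1 in R 4.3.3, after a filter on the mean of 0.5 FPKM for exons and 0.1 FPKM for introns. The model held genotype and a 24 h cosine and sine for each genotype. Tests of genotype, of rhythm in each genotype and of the difference in rhythm were adjusted by Benjamini and Hochberg over all genes tested, with a threshold of 0.05. Printed FPKM are before scaling and differences after it. The fit was tested on simulated data with independent errors. That test does not cover effects shared by a library or by a time. FPKM values worth up to 10 reads are whole multiples of 1 read within 0.1 read, which gave the depth of 9.91 to 28.9 M reads. P-values are set against deviations from the fitted daily curve. These mix the spread between pools with changes over time that the curve does not follow.

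Any member could be named. Fuller values were meant for members past the threshold for genotype or difference in rhythm and for the 6 with the largest called daily swing in total RNA exons, with at most 4 companions a list. Some called members are given by name and count only. Alternatives were another pseudocount, filter or scaling, a 12 h harmonic, the intron share or the share of the 10 most abundant genes as covariates, time as a block and each time left out. The block rests on shared sampling times in the labels. Deviations of the 2 genotypes at 1 time correlated above 0.1 in 12 of 12 pairs in total RNA exons (0.143 to 0.563), in 12 of 12 in both intron tables and in 11 of 12 in nuclear RNA exons. Once the fitted day curves were removed, 7 to 9 of 12 pairs did.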

Additional observations from a re-analysis of the deposited data

How the results depend on the processing

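Counts of members are given as higher and lower in Nono-/- unless rhythm is named. A pseudocount 10 times larger gave 1 rhythmic in wild-type nuclear exons, 0 in Nono-/- total introns, 1 with a higher exon to intron ratio in total RNA, and -0.073 for the wild-type nuclear to total ratio of Eif2s3y. Without a filter, 4 were lower in nuclear introns, 8 lower in the nuclear to total ratio, 2 above the median gene in wild-type, and 1 higher in the total RNA exon to intron ratio, and the wild-type ratios of Eif2s3y (-0.52), Eif4e (-0.55) and Eif5b (-0.12) turned negative. A filter 4 times higher gave 0 higher in total exons, 2 and 9 in nuclear exons, 1 rhythmic in wild-type nuclear exons, 1 lower and 0 rhythmic in Nono-/- total introns, 1 higher in nuclear introns, 7 lower in the nuclear to total ratio, 19 below the median gene in wild-type and 3 lower in the nuclear exon to intron ratio. Fewer members were tested there.

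Without scaling there were 2 and 1 in total exons, 13 rhythmic in Nono-/- total exons, 1 and 27 in nuclear exons, 3 rhythmic in wild-type nuclear exons, 2 and 18 in total introns, 0 rhythmic in Nono-/- total introns, 1 and 4 in nuclear introns, 0 rhythmic in wild-type nuclear introns, 0 and 23 in the nuclear to total ratio, 13 and 1 in the total exon to intron ratio and 22 lower in the nuclear one. The median gene then lay at -0.20 in nuclear exons, -0.21 in total introns, -0.21 in the nuclear to total ratio, 0.21 in the total and -0.18 in the nuclear exon to intron ratio. Upper-quartile scaling gave 2 higher in total exons, 1 rhythmic in wild-type nuclear exons, 4 lower in total introns, 4 and 3 in nuclear introns and 4 rhythmic in wild-type nuclear introns.

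The intron share as a covariate gave 0 and 0 in total exons, 13 rhythmic in Nono-/- total exons, 1 and 3 in nuclear exons, 3 rhythmic in wild-type nuclear exons, 0 and 0 in total introns, 0 rhythmic in Nono-/- total introns, 2 lower in nuclear introns, 0 and 2 in the nuclear to total ratio, 0 lower in the total and 0 and 0 in the nuclear exon to intron ratio. The share of the 10 most abundant genes gave 2 higher in total exons, 0 and 0 in nuclear exons, 5 rhythmic in Nono-/- and 3 in wild-type nuclear exons, 0 rhythmic in wild-type total introns, 0 and 0 in nuclear introns, 5 rhythmic in wild-type nuclear introns, and 0 and 0 in the nuclear to total and nuclear exon to intron ratios. With it the sign turned in nuclear exons for Eif2ak2 (-0.055), Eif2b5 (0.0067), Eif3f (0.16), Eif3j1 (-0.10), Eif4a2 (-0.15), Eif4g1 (0.069) and Eif6 (0.17), in nuclear introns for Eif3g (0.16) and Eif4a1 (0.082), in the nuclear to total ratio for Eif2b4 (0.12), Eif2d (0.0035), Eif3d (0.13), Eif3f (0.14), Eif3g (0.074), Eif3l (0.049) and Eif4g2 (-0.00023), and in the nuclear exon to intron ratio for Eif1a (-0.0024), Eif3f (0.017) and Eif6 (0.015). Both shares differ between the genotypes, and the cause of these changes was not tested.

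A 12 h harmonic left 12 rhythmic in Nono-/- total exons, 4 in Nono-/- and 1 in wild-type nuclear exons, 0 and 0 in total introns, and 3 in Nono-/- and 0 in wild-type nuclear introns. The replicate block by time gave 4 and 3 in total exons, 7 higher in nuclear exons, 1 and 9 in the nuclear to total ratio and 5 higher in the nuclear exon to intron ratio. The block together with the intron share, an alternative chosen after seeing the data, gave 0 and 0 in total exons, 1 and 3 in nuclear exons, 0 and 0 in total introns, 1 lower in nuclear introns, 0 and 1 in the nuclear to total ratio, 0 lower in the total and 0 and 0 in the nuclear exon to intron ratio.

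Leaving out each time gave 1 to 1 higher and 1 to 4 lower in total exons, 1 to 9 and 10 to 19 in nuclear exons, 2 to 9 and 1 to 6 in total introns, 1 to 3 and 2 to 10 in nuclear introns, 0 to 5 and 3 to 18 in the nuclear to total ratio, 4 to 7 above and 36 to 38 below the median gene in wild-type, 0 to 0 and 3 to 7 in the total exon to intron ratio, and 1 to 6 and 5 to 8 in the nuclear one. Rhythmic members numbered 10 to 22 in Nono-/- and 10 to 16 in wild-type total exons, 4 to 19 and 0 to 3 in nuclear exons, 0 to 3 and 0 to 1 in total introns, and 6 to 17 and 1 to 4 in nuclear introns, and members that differed in rhythm 0 to 0 throughout.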
